A study of Homo sapiens with 9 samples.

Results

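The AP-1 transcription factor genes are described here in MOLM13, an established human acute myeloid leukaemia cell line known to carry a KMT2A rearrangement and an internal duplication in FLT3. The 10 members, chosen by name with earlier results of these data known, are FOS, FOSB, FOSL1, FOSL2, JUN, JUNB, JUND, BATF, BATF3 and JDP2. They come from 59563 genes in each of 2 tables of comparisons that the authors deposited. Cells were cultured for 72 h with the solvent DMSO, with 1 µM iberdomide (CC-220) or with 50 nM mezigdomide (CC-92480, as titles and protocol spell it; the treatment label of these samples reads CC-92840), and 3 poly(A) RNA libraries were sequenced per group. Both drugs were dissolved in DMSO, and both bind cereblon, the substrate receptor of a ubiquitin ligase. Their doses differ, so values under the drugs stand side by side as those of the treatments given, not of the compounds at equal dose. Only this line was used in these libraries, and the labels do not state whether replicate libraries stem from separate cultures. The p-values thus cover the variation among the 9 libraries alone, and it may be technical.

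AP-1 is a family of dimers of basic leucine zipper (bZIP) proteins. JUN proteins pair with each other or with FOS proteins, while FOS proteins need a JUN partner, and the dimers bind the sequence TGACTCA or the related cyclic AMP response element (CRE) TGACGTCA. FOS, FOSB, JUN and JUNB are immediate early genes that growth factor, stress and MAP kinase signals switch on within minutes, whereas JUND is expressed more steadily. BATF proteins and JDP2 lack a strong activation domain of their own and compete for JUN partners. AP-1 factors take part in the maturation of monocytes and macrophages.

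Of the 10 members, 8 have a start site among the RefSeq promoter windows (GRCh38.p14), which hold 250 bases before each start. BATF3 and FOSL1 are not in that table. The 8 have 10 windows, since JDP2 has 3 starts. A feature that the choice by name did not use is the CRE half-site TGACG, searched on both strands: 7 of the 10 windows hold it, against 21.2% of 35116 windows of all genes. They belong to 7 members, with 1 of the 3 JDP2 windows among them, and BATF holds none. The BATF window was 43.2% G or C, and every other member window was 62.0% or more. The median over all windows was 58.0%. The comparison of shares was not matched for G or C content. Stretches of 30 bases around most of these sites are shown because FOS, JUN and JUND, which carry the results below, can be compared in them. The JUN stretch is that of a variant, TGACATCA, and the JUN half-site is not shown. A further FOSL2 half-site, on the opposite strand and beginning 201 bases before the start, is not shown either. Each stretch runs 5′ to 3′ on the gene's strand, with the matched letters in capitals, and CGTCA is the half-site read on the opposite strand.
FOS, chr14:75278751-75278780, plus strand: gtggttgagcccgTGACGtttacactcatt
FOSB, chr19:45467923-45467952, plus strand: agcaaggggcgggTGACGtaagcagggggg
FOSL2, chr2:28392779-28392808, plus strand: tggagtctggggtTGACGtgagtgaatcca
JUN, chr1:58784096-58784125, minus strand: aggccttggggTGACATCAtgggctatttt
JUNB, chr19:12791336-12791365, plus strand: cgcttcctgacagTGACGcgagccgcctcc
JUND, chr19:18281804-18281833, minus strand: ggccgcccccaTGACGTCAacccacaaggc
JUND, chr19:18281692-18281721, minus strand: tgcaaatgagcgaCGTCAcccgcacccaat
JDP2, chr14:75427912-75427941, plus strand: ctccgtccccctcTGACGtctggagctggc

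JUND alone held the full palindrome TGACGTCA, which contains the half-site on both strands, with its first base 200 bases before the start; 1.65% of all windows hold it. The JUN stretch shows the variant TGACATCA, a textbook JUN and ATF2 site of this promoter, with its first base 67 bases before the start; 2.37% of all windows hold it, and JUN holds a separate half-site farther upstream. The half-site of FOS began 64 bases before its start and that of FOSB 60 bases before. All these starts are RefSeq starts, and the GENCODE genes can begin farther upstream. The JUN, FOSL2 and JDP2 stretches lie inside the GENCODE gene, that of JUN within its single exon, and the FOS stretch reaches into it. The AP-1 site TGACTCA (4.2% of all windows) and the CArG box (1.16%) were found in none of the 8 members within the 250 bases. The TATA sequence TATAAA stood in FOS, FOSB and JUNB (10.7% of all windows), and CCAAT in JUN, JUNB and JUND (32.0%). A match describes letters only, and no match says only that these letters are not in this window.

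The longer stretches of FOS, which rose under both drugs, and JUND, which fell under both, follow because these members moved in opposite directions. Capitals mark the CRE or its half-site, CCAAT and the GC box GGGCGG, on either strand. The GC box is held by 42.6% of all windows. The FOS stretch ends where the GENCODE exon begins.
FOS, chr14:75278578-75278773, plus strand: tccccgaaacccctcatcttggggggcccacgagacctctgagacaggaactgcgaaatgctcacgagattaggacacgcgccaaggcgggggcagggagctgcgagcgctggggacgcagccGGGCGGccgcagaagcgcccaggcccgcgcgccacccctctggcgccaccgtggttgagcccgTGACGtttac
JUND, chr19:18281623-18281872, minus strand: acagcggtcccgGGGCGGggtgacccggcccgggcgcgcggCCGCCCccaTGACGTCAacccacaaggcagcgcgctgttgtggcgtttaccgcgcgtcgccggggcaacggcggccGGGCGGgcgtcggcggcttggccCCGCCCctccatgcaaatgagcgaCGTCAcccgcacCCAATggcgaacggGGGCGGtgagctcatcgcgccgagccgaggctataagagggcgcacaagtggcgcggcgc
The 250 bases before the JUND start were 74.8% G or C and held 5 GC boxes, those of FOS were 64.8% and held 1, and the median of all windows was 58.0%. This contrast of JUND and FOS did not extend to the other members. JUN and BATF, which fell, had 62.0% and 43.2%, and FOSB, lower under mezigdomide, had 65.6%. FOSL2, which rose, had 69.6%, and JDP2, higher under mezigdomide, had 62.8% to 87.2% in its windows. JUNB, which did not pass, had 70.8%. A link between these shares and the direction of change was not tested.

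No value per library was used here. The authors deposited a mean normalised count over all 9 libraries (counts divided by library size factors), a log2 fold change of each drug over DMSO, its standard error (SE), and a Wald p-value with Benjamini-Hochberg adjustment. The replicate spread therefore enters through the SE, and whether single libraries of 2 groups overlap was not analysed here. The mean normalised counts sum to 23493396 per library on average. Group levels given below are implied: they are the 3 values that have the deposited mean as their average and the deposited fold changes as their ratios, and they have no SD. The deposited changes are shrunk towards 0, most strongly in genes with few counts (at most 0.0132 in size in genes with a mean below 0.2), so the differences of BATF3, FOSB and JUN are understated. The line's label was checked against markers: the myeloid genes CD33, MPO, SPI1, LYZ, CSF3R, FLT3, MEIS1 and HOXA9 had means of 1644 to 23353 normalised counts per the authors' deposited table. Of the markers of other cells, HBB, HBA1 and CD2 were at 0 and CD3E, CD3G and MS4A1 below 1, while the natural killer marker NCAM1 had a mean of 718 per the authors' deposited table.

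Levels were compared between genes per kilobase (kb) of exon (GENCODE 29, GRCh38), as the mean normalised count over all libraries. JUND stood first at 5307 per kb, 5.33 times JUNB at 996. FOSL2 followed at 809, BATF at 372, FOS at 331, FOSL1 at 246 and JDP2 at 131 per kb. JUN, the gene that names the family, stood at 26.5 per kb, 201 times lower than JUND, and BATF3 and FOSB closed the order at 8.98 and 7.94. The closest neighbours were BATF and FOS (1.12 times apart), BATF3 and FOSB (1.13 times) and JUNB and FOSL2 (1.23 times). The exon length counts the bases of all annotated transcripts, 3238 for FOS and 5553 for FOSB. Their longest single transcripts have 2158 and 3775 bases, so the order of close neighbours depends on the length used. The order of levels was not tested, since no spread between libraries of the per-kb levels was had. The most abundant AP-1 transcript in these cells was thus JUND in all 3 groups, while the immediate early genes JUN and FOSB were near the bottom of the order.

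**Figure D1:**
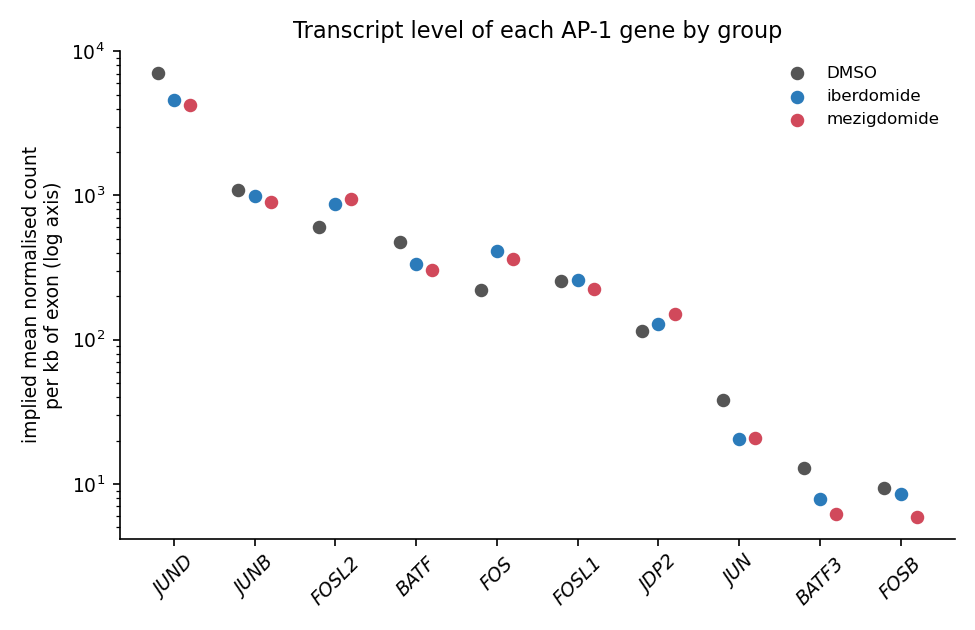
Implied mean normalised count per kb of exon (vertical log axis) of each AP-1 gene in the DMSO, iberdomide and mezigdomide groups, ordered by the mean over all libraries. Points are group levels without error; JUND is highest in every group (7065, 4594 and 4262), and FOS and FOSL2 are higher under both drugs than under DMSO.

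Each drug was compared with DMSO to see how AP-1 transcripts stood after 72 h. Under both drugs FOS and FOSL2 rose and JUN, JUND, BATF and BATF3 fell, each by 1.44 to 2.05 times per the authors' deposited tables. All 10 members were tested. Under iberdomide 2 rose, 4 fell and 4 did not pass an adjusted p of 0.05, so 6 of 10 were called where 14.1% of all genes were (7.30% higher and 6.77% lower). Under mezigdomide 3 rose, 5 fell and 2 did not pass, so 8 of 10 were called where 21.2% of all genes were (10.4% higher and 10.7% lower). Every member had a mean above 20 normalised counts, and among genes at or above that mean 18.2% were called under iberdomide and 28.9% under mezigdomide. The members were chosen with earlier results of these data known. These shares therefore cannot show whether AP-1 genes were called more often than other genes. The median log2 fold change of the 10 members was -0.13 under iberdomide and -0.47 under mezigdomide, against -0.0095 and -0.0070 over all genes tested. Without regard to sign the medians were 0.53 and 0.66 for the members and 0.14 and 0.17 for all genes. In these bulk libraries fewer cells expressing a gene and less RNA per cell cannot be told apart.

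**Figure D2:**
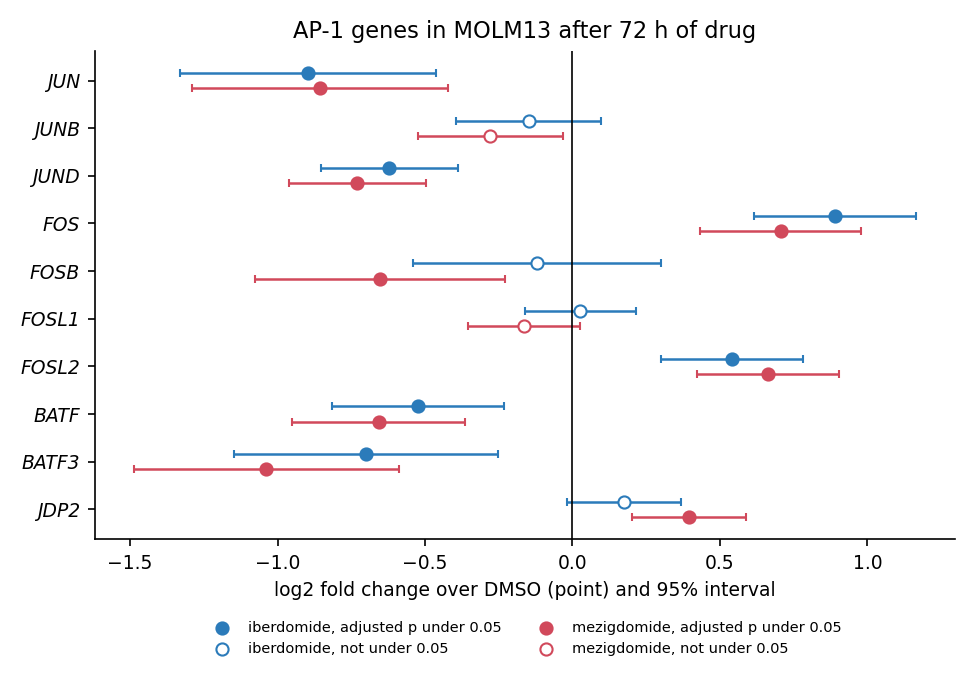
Log2 fold change over DMSO (horizontal axis) with its 95% interval for each AP-1 gene under iberdomide (blue) and mezigdomide (red); filled points have an adjusted p under 0.05. FOS and FOSL2 lie to the right of 0 and JUN, JUND, BATF and BATF3 to the left under both drugs.

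Among the JUN genes, JUND (chromosome 19, 18279760 to 18281622), the steady partner of FOS proteins, had implied levels of 13162 normalised counts under DMSO, 8559 under iberdomide and 7941 under mezigdomide. Both drug groups thus stood below DMSO. Its log2 fold change was -0.62 (SE 0.12; 0.65 of the DMSO level, 95% interval 0.55 to 0.76) under iberdomide per the authors' deposited table, with a Wald test adjusted p of 3.37e-06. Under mezigdomide it was -0.73 (SE 0.12; 0.60 of DMSO, interval 0.51 to 0.71; adjusted p = 1.60e-08) per the authors' deposited table. JUND is also the member richest in GC: 69.7% of its longest transcript, above 99.6% of genes tested under iberdomide. Fold changes declined with GC content across all genes (Spearman rho = -0.18 under iberdomide and -0.21 under mezigdomide, across genes, which are not independent replicates). With a trend in GC content and length removed, JUND stood at -0.39 (adjusted p = 0.0105) under iberdomide and -0.38 (adjusted p = 0.00856) under mezigdomide, 1.60 and 1.90 times smaller than deposited. It passed in both fits, and the part of GC content in the fall of JUND was not tested.

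JUN (chromosome 1, 58780788 to 58784327), the founding member and a gene of 1 exon, had implied levels of 134 normalised counts under DMSO, 72.2 under iberdomide and 74.3 under mezigdomide. Both drug groups were lower than DMSO and close to each other. The authors' deposited table gives a log2 fold change of -0.90 (SE 0.22, adjusted p = 0.000777) under iberdomide and of -0.86 (SE 0.22, adjusted p = 0.00110) under mezigdomide, that is 0.54 and 0.55 of the DMSO level. Genes with a mean within 2 times that of JUN had a median SE of 0.17. The SE of JUN was above that of 98.7% of these genes under iberdomide and 98.8% under mezigdomide. By the same measure under iberdomide, FOS stood above 90.1%, BATF above 86.3%, FOSL2 above 84.5% and JUND above 83.5% of like genes. The other members stood above 23.2% (FOSL1) to 82.7% (JUNB). JUNB (chromosome 19, 12791496 to 12793315), which often restrains JUN and can take its place, had implied levels of 1995, 1801 and 1644 under DMSO, iberdomide and mezigdomide. Its log2 fold changes of -0.15 (adjusted p = 0.561) and -0.28 (adjusted p = 0.101) per the authors' deposited table did not pass. They were -0.0071 and -0.069 once the GC and length trend was removed, and 14.2% of the JUNB exon bases lie opposite an exon of HOOK2, whose reads cannot be separated from those of JUNB if the counting ignored strand.

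**Figure D3:**
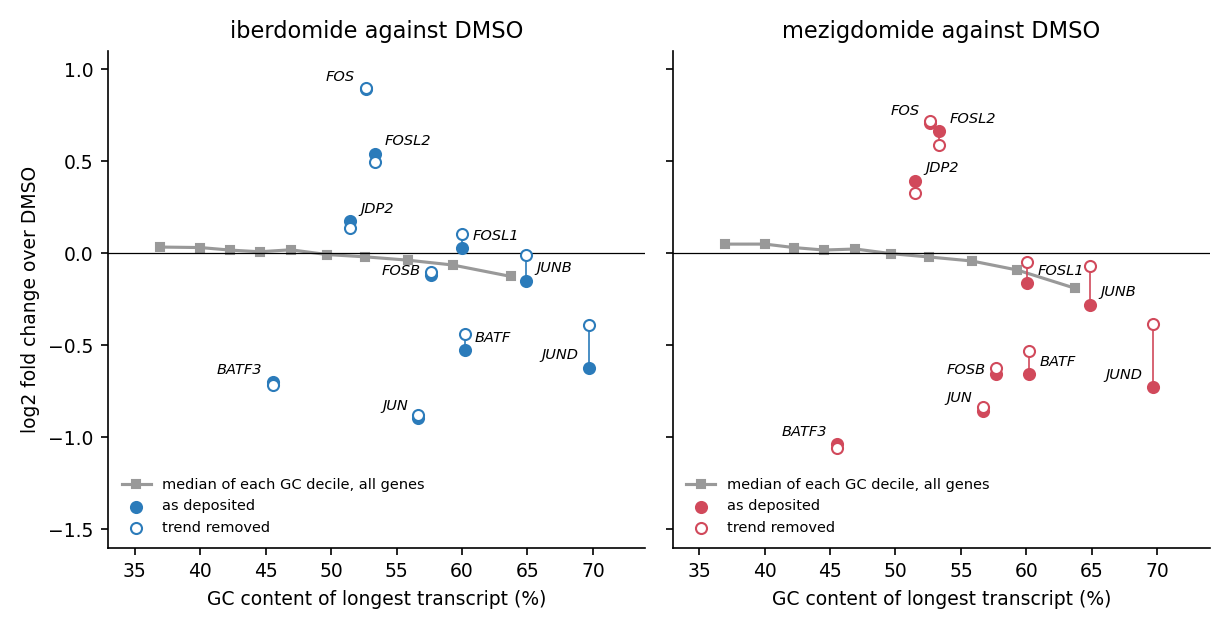
Log2 fold change over DMSO against the GC content of the longest transcript (%), under iberdomide (left) and mezigdomide (right). Filled points are the AP-1 genes as deposited, open points after removal of a trend in GC content and length, and grey squares the median of each decile of all genes by GC content; JUND and JUNB, the members richest in GC, move most, and FOS and JUN little.

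Among the FOS genes, FOS (chromosome 14, 75278774 to 75282230), the immediate early partner of JUN, had an implied level of 717 normalised counts under DMSO, 1328 under iberdomide and 1169 under mezigdomide. Its level was thus higher in both drug groups. It rose 1.85-fold under iberdomide (log2 0.89, SE 0.14, 95% interval of the fold 1.53 to 2.24; adjusted p = 6.75e-09) per the authors' deposited table. Under mezigdomide it rose 1.63-fold (log2 0.71, SE 0.14, interval 1.35 to 1.97; adjusted p = 7.59e-06) per the authors' deposited table. Of 19497 genes tested under iberdomide, 351 had a higher log2 fold change than FOS.

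FOSL2 (chromosome 2, 28392448 to 28417312), which encodes FRA2, is the most abundant FOS gene here, with implied levels of 4299 under DMSO, 6258 under iberdomide and 6811 under mezigdomide. It rose 1.46-fold under iberdomide (log2 0.54, SE 0.12, adjusted p = 0.000181) and 1.58-fold under mezigdomide (log2 0.66, SE 0.12, adjusted p = 1.30e-06) per the authors' deposited tables. FOSL1 (chromosome 11, 65892049 to 65900573), which encodes FRA1 and is often high in invasive carcinoma cells, had implied levels of 478 under DMSO, 487 under iberdomide and 427 under mezigdomide. Its log2 fold changes of 0.027 (95% interval -0.16 to 0.22, adjusted p = 0.930) and -0.16 (-0.35 to 0.026, adjusted p = 0.252) per the authors' deposited tables did not pass. FOSB (chromosome 19, 45467995 to 45475179) had implied levels of 51.7 under DMSO, 47.6 under iberdomide and 32.9 under mezigdomide. It fell under mezigdomide by 0.65 on the log2 scale (SE 0.22, adjusted p = 0.0152) per the authors' deposited table, while under iberdomide the value of -0.12 (SE 0.21, adjusted p = 0.838) did not pass. The 4 FOS genes therefore did not move as a block: FOS and FOSL2 rose, FOSB fell under mezigdomide, and FOSL1 passed under neither drug.

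The remaining members are BATF, BATF3 and JDP2. BATF (chromosome 14, 75522425 to 75547015), which with JUN proteins and IRF4 or IRF8 binds composite sites in immune cells, had implied levels of 469.7 under DMSO, 327 under iberdomide and 298 under mezigdomide. It fell to 0.70 of DMSO under iberdomide (log2 -0.52, SE 0.15, adjusted p = 0.00475) and to 0.63 under mezigdomide (log2 -0.66, SE 0.15, adjusted p = 0.000126) per the authors' deposited tables. BATF3 (chromosome 1, 212686418 to 212699985), known from the development of cross-presenting dendritic cells, was among the lowest members, with implied levels of 34.7, 21.4 and 16.9 under DMSO, iberdomide and mezigdomide. It fell to 0.62 of DMSO under iberdomide (log2 -0.70, SE 0.23, adjusted p = 0.0192) and to 0.49 under mezigdomide (log2 -1.04, SE 0.23, adjusted p = 7.57e-05) per the authors' deposited tables, and 211 of 20819 genes tested under mezigdomide had a lower log2 fold change. JDP2 (chromosome 14, 75427716 to 75474111), a repressor of AP-1 and CRE sites, moved the other way, from an implied 713 under DMSO to 805 under iberdomide and 938 under mezigdomide. It rose under mezigdomide (log2 0.39, SE 0.098, adjusted p = 0.000603), and under iberdomide the value of 0.17 (SE 0.099, adjusted p = 0.293) did not pass, per the authors' deposited tables. BATF2, a relative outside the 10 members, had a mean of 5.77 normalised counts and did not pass under iberdomide (0.24, adjusted p = 0.568) or mezigdomide (0.44, adjusted p = 0.122) per the authors' deposited tables.

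FOS, JDP2 and BATF lie in this order on the plus strand of chromosome 14, between positions 75278774 and 75547015, and did not share a direction. In the authors' deposited table for mezigdomide FOS rose, JDP2 rose and BATF fell, with the values given above. JUND, JUNB and FOSB are all on chromosome 19.

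Summed by subfamily, the implied levels of the 3 JUN genes were 8199 per kb under DMSO, 5604 under iberdomide and 5187 under mezigdomide. Those of the 4 FOS genes were 1085, 1551 and 1545 per kb in the same order. JUND made up 86.2% of the JUN gene sum under DMSO, and FOSL2 and FOS made up 55.4% and 20.4% of the FOS gene sum. The ratio of JUN gene to FOS gene transcripts was thus 7.56 under DMSO, 3.61 under iberdomide and 3.36 under mezigdomide. With the GC and length trend removed the ratios were 6.73, 3.75 and 3.79. These sums follow from the choice of members, from the exon lengths used and from 3 genes in the main. They are of RNA and not protein, and carry no test.

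**Figure D4:**
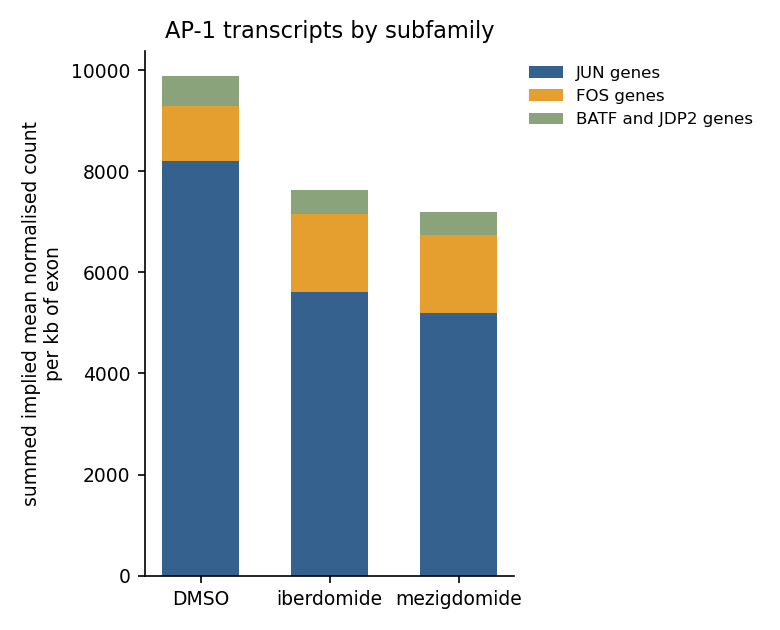
Summed implied mean normalised counts per kb of exon (vertical axis, from 0) of the JUN, FOS and BATF and JDP2 genes in each group, without error. The JUN gene part is 8199 under DMSO, 5604 under iberdomide and 5187 under mezigdomide, and the FOS gene part is 1085, 1551 and 1545.

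The drugs were also set against each other through the difference of their log2 fold changes, mezigdomide minus iberdomide. Both tables share the DMSO libraries, so their values are not independent of each other. No member passed (0 of 10 adjusted, where 0.108% of all genes were called, and 0 at an unadjusted p under 0.05, where 1.49% of all genes were, in a two-sided normal test of the difference with the errors taken as independent). FOSB had the smallest p, with a difference of -0.53 (95% interval -1.13 to 0.063; unadjusted p = 0.0794, adjusted p = 1.00). JDP2 differed by 0.22 (-0.053 to 0.49), BATF3 by -0.34 (-0.97 to 0.29) and FOS by -0.18 (-0.57 to 0.20). JUND differed by -0.11 (-0.44 to 0.22), FOSL2 by 0.12 (-0.22 to 0.46) and JUN by 0.041 (-0.57 to 0.66). All of these intervals include 0 and do not show that the drugs act alike. FOSB and JDP2 passed against DMSO under mezigdomide and not under iberdomide, but are not shown to differ between the drugs. With the errors taken to correlate at 0.5, 0 of 10 passed after adjustment, where 0.605% of all genes did. At that correlation FOSB (0.0131), JDP2 (0.0257) and FOSL1 (0.0480) had an unadjusted p under 0.05, as 4.62% of all genes had. Their 95% intervals were then -0.95 to -0.11, 0.027 to 0.41 and -0.38 to -0.0017, which leave out 0. The true correlation of the errors was not estimated. To the extent that the shared DMSO libraries make the errors correlate positively, the intervals taken with independent errors are too wide.

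Beside the members, 6 lists of genes around AP-1 were read by count. The background for these counts is the share of all genes called, 14.1% under iberdomide and 21.2% under mezigdomide, or 18.2% and 28.9% among genes whose mean normalised count is 20 or more. The lists, too, were chosen with earlier results of these data known. A list share above or below this background is therefore a description and not a test. Of 18 tested other bZIP partners 5 passed under iberdomide, each of them lower, and 2 rose and 5 fell under mezigdomide, that is 27.8% and 38.9% of the list. The list medians were -0.13 and 0.053 on the log2 scale. DDIT3, the stress factor CHOP, had the largest fall of those called in this list (-0.72, SE 0.14, adjusted p = 9.55e-06 under iberdomide and -0.95, SE 0.14, adjusted p = 9.75e-10 under mezigdomide) per the authors' deposited tables. ATF3, an immediate early partner of JUN proteins, fell by 0.45 and 0.72, and ATF4, the amino acid stress regulator, by 0.27 and 0.44, under iberdomide and mezigdomide per the authors' deposited tables; the fall of ATF4 under iberdomide did not pass with the GC and length trend removed. NFE2, a bZIP factor of megakaryocytes and red cell precursors, fell by 0.46 and 0.39, and MAFF, a small MAF protein named here after its values were seen, by 0.57 and 0.68 per the authors' deposited tables.

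Of 27 MAP kinases and kinases that act on JUN or FOS, 3 rose and 3 fell under iberdomide, and 5 rose and 4 fell under mezigdomide (medians 0.0064 and -0.024). These are 22.2% and 33.3% of the list, near the background of 18.2% and 28.9%. MAPK14, which encodes the stress kinase p38α, rose by a log2 of 0.46 (SE 0.064) under iberdomide and 0.59 (SE 0.064) under mezigdomide per the authors' deposited tables. PRKCD, protein kinase C delta, rose by 0.22 and 0.28, while RPS6KA5, the kinase MSK1 that phosphorylates CREB and histone H3 at early genes, fell by 0.39 under each drug per the authors' deposited tables. RPS6KA2, at a mean of 29.2 normalised counts, fell by 1.00 and 1.03 per the authors' deposited tables. The JNK genes MAPK8 and MAPK9, whose products phosphorylate JUN, did not pass under iberdomide (-0.043 and -0.14) or mezigdomide (-0.082 and -0.17) per the authors' deposited tables.

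Of 15 factors that act on the FOS and JUN promoters, 1 passed under iberdomide and 4 under mezigdomide, each of them higher (medians 0.039 and 0.13). These are 6.67% and 26.7% of the list, below the background under iberdomide and near it under mezigdomide. They were STAT3 under both drugs (0.20 and 0.30), and under mezigdomide also CREB1, which binds the CRE (0.28), ELK4, a partner of SRF (0.31), and YY1 (0.14), per the authors' deposited tables. With the GC and length trend removed, 0 passed under iberdomide and only STAT3 under mezigdomide. SRF itself, at a mean of 3280 normalised counts, stood at -0.036 and -0.032 per the authors' deposited tables.

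Of 24 repressors and turnover factors of AP-1, 3 rose and 3 fell under iberdomide, and 3 rose and 5 fell under mezigdomide (medians -0.013 and -0.011). These are 25% and 33.3% of the list, near the background of 18.2% and 28.9%. DUSP6, the phosphatase of ERK, rose 1.85-fold under iberdomide (log2 0.88, SE 0.097, adjusted p = 6.54e-18) and 1.79-fold under mezigdomide (log2 0.84, SE 0.097, adjusted p = 2.65e-16) per the authors' deposited tables. DUSP16, a phosphatase of JNK, rose by a log2 of 0.60 and 0.86 per the authors' deposited tables. ZFP36L1, which speeds the decay of AU-rich messages, fell by 0.84 and 0.66, and USP28, a deubiquitinase that opposes FBXW7 and so stabilises JUN, fell by 0.51 and 0.55, per the authors' deposited tables. MEN1, which encodes menin, a binding partner of JUND protein and the target of the Menin inhibition that the study's title names, did not pass (-0.088, adjusted p = 0.655, and -0.16, adjusted p = 0.222) per the authors' deposited tables.

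Of 26 textbook AP-1 target genes 19 were tested, and the other 7, among them MMP1, MMP3 and IL6, had means near or at 0. Under iberdomide 2 rose and 6 fell, and under mezigdomide 4 rose and 7 fell, with list medians of -0.21 and -0.17. These are 42.1% and 57.9% of those tested, where 7.30% of all genes rose and 6.77% fell under iberdomide and 10.4% rose and 10.7% fell under mezigdomide. Among genes with a mean of 20 or more, 18.2% were called under iberdomide and 28.9% under mezigdomide. CD44, the hyaluronan receptor, fell to 0.48 of DMSO under iberdomide (log2 -1.06, SE 0.11, adjusted p = 7.60e-22) and 0.43 under mezigdomide (log2 -1.21, SE 0.11, adjusted p = 1.23e-28) per the authors' deposited tables. PLAUR, the urokinase receptor, fell by 0.50 and 0.82, and the chemokine gene CCL2, at a mean of 18.1 normalised counts, by 1.09 and 1.16, per the authors' deposited tables. The cytokine gene TNF rose by 0.65 and 0.59 and the intermediate filament gene VIM, named here after its values were seen, by 0.54 and 0.36, per the authors' deposited tables.

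Of 13 tested partners of BATF at composite sites, 4 rose and 3 fell under each drug (medians 0.024 and 0.064), that is 53.8% of the list, where 14.1% of all genes were called under iberdomide and 21.2% under mezigdomide. The shares among genes with a mean of 20 or more were 18.2% and 28.9%. ETS1, an ETS factor that binds beside AP-1, rose 3.44-fold under iberdomide (log2 1.78, SE 0.10) and 3.70-fold under mezigdomide (log2 1.89, SE 0.10) per the authors' deposited tables. IRF8, the monocyte partner of BATF proteins, rose by a log2 of 0.53 and 0.58, opposite to BATF and BATF3, per the authors' deposited tables. IKZF1, whose protein both drugs degrade, rose by 0.76 and 0.98, and RUNX3 fell by 0.60 and 0.73, per the authors' deposited tables. Monocyte markers moved with these groups: CSF1R stood at 1.34 and 1.54, CD14 at 1.79 and 1.49 and CD68 at 0.47 and 0.58, while FCGR3A was near 0, per the authors' deposited tables. COL1A1, a stromal collagen gene, stood at 1.41 and 1.49 with a mean of 101 normalised counts, while EPCAM was below 1, per the authors' deposited tables. Of the same list of epithelial and stromal markers PECAM1, an endothelial gene that leukocytes also express, rose by 0.30 and 0.48 at a mean of 4067, per the authors' deposited tables. The keratin gene KRT18, at a mean of 207, stood at -0.14 (adjusted p = 0.682) under iberdomide and fell by 0.43 (adjusted p = 0.0301) under mezigdomide, per the authors' deposited tables. The part of these markers in the AP-1 values was not tested.

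**Figure D5:**
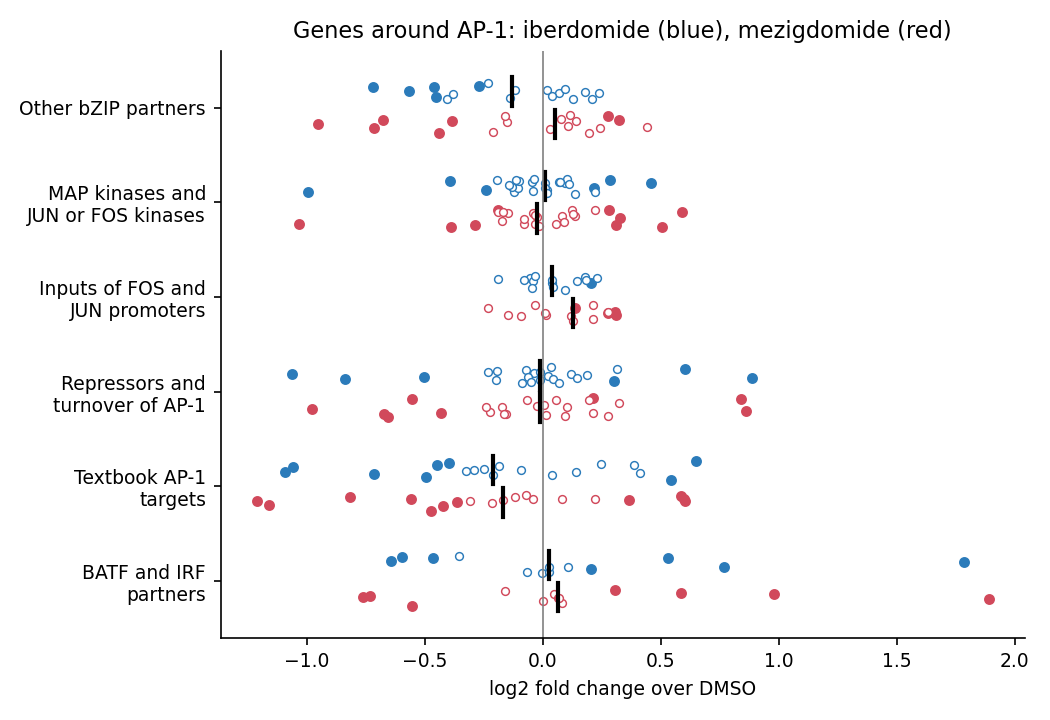
Log2 fold change over DMSO (horizontal axis) of each tested gene in 6 lists around AP-1, under iberdomide (blue, upper row) and mezigdomide (red, lower row); filled points have an adjusted p under 0.05 and black bars are list medians. The target list has the lowest medians under both drugs (-0.21 and -0.17), and ETS1 is the point farthest right.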

How the data were processed

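Poly(A) RNA of 9 MOLM13 libraries was read as 37 bp paired-end reads, per the labels' protocols. The submitters' processing notes name STAR 2.7.5a, HTSeq 0.6.1pl, DESeq2 and the build GRCh38, with no role or order; neither the annotation nor the strand setting is stated in them or in the labels. Per the file headers, the authors deposited for each drug a mean normalised count (a signal: counts over size factors), a log2 fold change with SE, a Wald statistic (a score), and a p-value with its adjusted p-value. Means were identical in both tables, so each contrast came from a fit of all 9 libraries. The authors' DESeq2 Wald test was used as deposited, at an adjusted p under 0.05. From the tables, 44 second copies on chromosome Y and 92 rows naming no gene (3.39e-05% of normalised counts) were left out.

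Implied group levels, 95% normal intervals, the difference test (independent errors), exon lengths and GC content (GENCODE 29) and motif searches (RefSeq promoters) were computed with Python 3.11.15, numpy 2.4.6, pandas 2.3.3 and scipy 1.17.1. Functions were tested on simulated data. The trend in GC content and length was a cubic fit over 19210 (iberdomide) and 20475 (mezigdomide) genes. Members and lists were chosen with earlier results of these data known. Named from each list were up to 4 called genes with the smallest adjusted p, any whose calls differed in direction (none did), and MEN1 and BATF2; SRF, MAPK8, MAPK9, MAFF, VIM and the markers were named after values were seen. Values of some marker genes are not reported here.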

Additional observations from a re-analysis of the deposited data

How the results depend on the processing

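The count of AP-1 genes called kept within 1.5 times under every alternative run: 6 under iberdomide with no filter on low counts, with centred fold changes and with the GC and length trend removed, and 5 with a mean of at least 50, which leaves out BATF3 and FOSB; 8, 8, 8 and 6 under mezigdomide. Each member kept its direction and its side of the threshold wherever it was tested. Centring moved fold changes by 0.0081 and 0.014 only. Of the list counts, those of factors acting on the FOS and JUN promoters changed most: with the GC and length trend removed, an alternative chosen after seeing the data, 0 passed under iberdomide (1 as deposited) and 1 under mezigdomide (4 as deposited). No paired analysis was possible because the tables hold no value per library; a fit with a replicate block, leaving out each replicate and edgeR were therefore not run. Depth limits BATF3, FOSB and JUN most, whose means were 24.4, 44.1 and 93.7 normalised counts.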
